A study of Mus musculus with 8 samples.

Results

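The data described here are the baseline transcriptome of neonatal cardiomyocytes (NCMs) from newborn mice whose dams had breathed filtered air (FA) throughout the exposure period. They comprise the 4 FA libraries, labelled FA replicates 2, 3, 4 and 6, of the 8 RNA-seq libraries in the series. The other 4 libraries come from offspring of dams exposed to diesel exhaust and were not compared here. Every FA library was chosen by its treatment label and none by a measured value. C57Bl/6J dams were held in FA from embryonic day 0.5 until late gestation, and offspring hearts were collected at postnatal day 0 (PND0). Each library holds cells from 1 male heart that was trimmed of vascular and atrial tissue, dissociated with Liberase TH, and preplated with Ara-C so that fibroblasts would attach. The 4 FA libraries are therefore separate hearts, but the litter of each is not given, and the methods count fewer sequenced hearts per group than the 4 FA columns in the table. No cardiac mutation, transgene or surgery is named for this group, and the FA animals serve as the control arm of the series.

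The ventricular cardiomyocyte contracts by sliding myosin thick filaments along actin thin filaments, a cycle switched on by calcium that the sarcoplasmic reticulum releases and then pumps back. Around birth this cell changes several of its programs together: fetal isoforms of sarcomeric proteins give way to adult ones, fuel use moves from glucose and lactate toward fatty acids, mitochondria expand, and division slows before it largely stops. A transcriptome taken on the day of birth therefore catches paired fetal and adult isoforms side by side.

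The 4 libraries held 38619126, 20699888, 17943024 and 20846303 counts for FA replicates 2, 3, 4 and 6. Counts are given below as counts per 1000000 counts (CPM), with library totals adjusted by the trimmed mean of M-values (TMM), whose factors ran only from 0.992 to 1.01. Levels of different genes are compared per length, as transcripts per 1000000 (TPM), from counts divided by exon length. Shares of counts and summed CPM of lists do not allow for length. Errors are SD over the 4 libraries (n = 4) throughout. Of 27179 genes in the table, 13233 (48.7%) averaged at least 1 CPM, 9049 at least 10 CPM, 1906 at least 100 CPM, 80 at least 1000 CPM and 8 at least 10000 CPM. The 100 most abundant genes of a library took 30.2 to 32.8% of its counts, and 496 to 585 genes made up 50 percent of them. The labelled sex could be checked: the Y-linked genes Ddx3y, Eif2s3y, Uty and Kdm5d averaged 176, 117, 30.4 and 28.6 CPM, and Xist, the RNA of the inactive X chromosome, averaged 0.191 CPM and reached at most 0.261 CPM in a library.

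Before any level is read, the libraries need to be placed against each other, since as normalised they fell into 2 pairs. FA replicates 2 and 4 differed by a median of 0.07 on the log2 scale per gene, FA replicates 3 and 6 by 0.15, and the libraries of different pairs by 0.19 to 0.22. All pairs nevertheless ranked the genes alike, with Spearman's rho over 13233 genes of 0.9862 to 0.9973. Replicates 3 and 6 held relatively more counts of short transcripts and fewer of long ones, a trend described in full at the end. In a bulk library, fewer cells of a type and less RNA per cell cannot be told apart, which holds for each marker gene named below.

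The most abundant transcripts were those of the mitochondrial genome and the sarcomere. The 13 protein-coding genes of the mitochondrial DNA encode core subunits of the respiratory chain and ATP synthase. Together they took 11.2, 11.9, 10.1 and 12.4% of counts in FA replicates 2, 3, 4 and 6 and 27.9% of all TPM. ATP6, a subunit of ATP synthase, was first at 43104, 41437, 39687 and 46397 TPM in the 4 libraries (mean 42656 ± 2858). ND1, a complex I subunit, followed at 34687 ± 2488 TPM, then COX3 and COX1 of complex IV at 33395 ± 2012 and 29303 ± 1580 TPM and CYTB of complex III at 28241 ± 1203 TPM. ATP6 was above ND1 in all 4 libraries, and their ranges did not overlap. The order of ND1 against COX3, and of COX1 against CYTB, held in 3 of the 4 libraries.

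Genes of the nucleus entered the list at rank 8 with Actc1, cardiac alpha-actin of the thin filament. Its level was 17964, 18018, 18552 and 22116 TPM in FA replicates 2, 3, 4 and 6. Tnnt2, which anchors the troponin complex to tropomyosin, stood at 14357 ± 1005 TPM, and Myl2, the ventricular regulatory myosin light chain, at 12523 ± 1395 TPM. Myh6, the alpha myosin heavy chain, reached 8451 ± 956 TPM, followed further down by Myl3 at 6967 ± 820 TPM, Atp5b, the catalytic beta subunit of ATP synthase, at 6320 ± 242 TPM, and Tnnc1, the calcium sensor of the thin filament, at 4900 ± 542 TPM. Of the 19 pairs of neighbours among the 20 genes with the highest TPM, 4 had ranges that did not overlap between the members, so most neighbouring ranks are within the spread of the hearts. Still, 19 of the 20 were among the top 20 of every library.

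**Figure D1:**
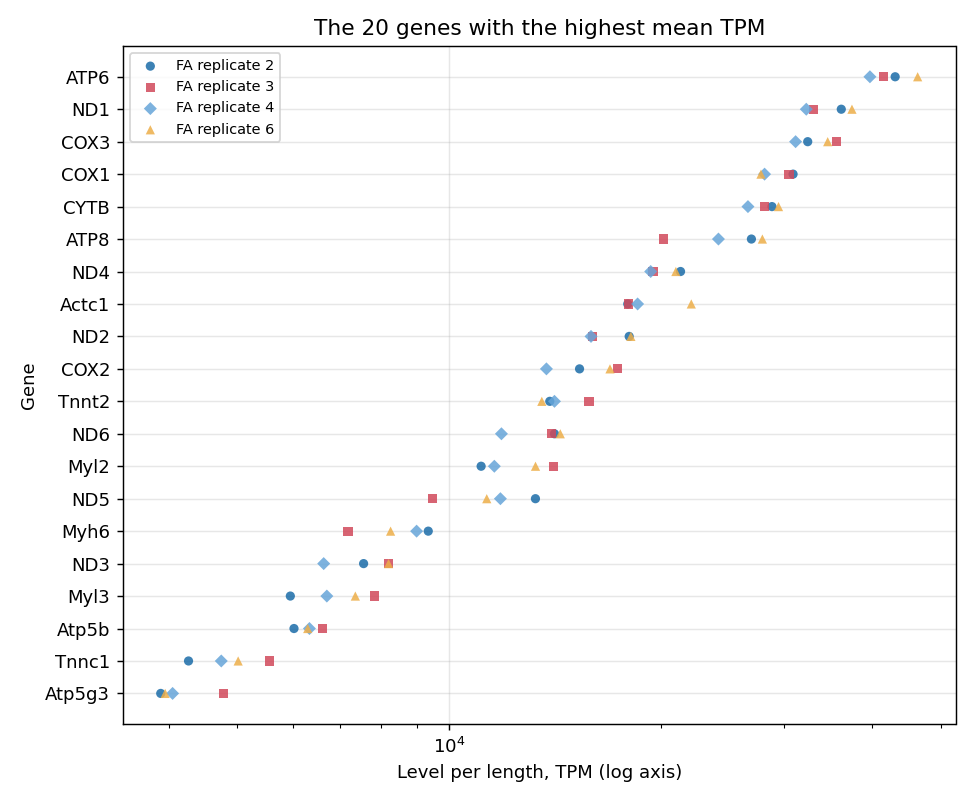
Level per length (TPM, log axis) of the 20 genes with the highest mean, in each of the 4 FA libraries (1 point per library). Mitochondrially encoded genes fill the upper rows, with ATP6 at a mean of 42656 TPM, and Actc1 at rank 8 is the highest nuclear gene.

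Counted without regard to length, the order changes, since a long transcript collects more reads. Myh6 then had the highest mean, at 24081, 20764, 22543 and 23496 CPM in FA replicates 2, 3, 4 and 6, although COX1, at 22238 CPM, was above it in FA replicate 3. Myh7, the beta myosin heavy chain, held 10048, 9132, 10950 and 8963 CPM. Titin (Ttn), the elastic spring of the sarcomere, drew 5562 ± 1648 CPM but only 113 ± 38.9 TPM over its 113588 bases of exon.

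Mitochondrial genes overlap, and the levels of some members rest on how overlapping fragments were assigned, which the sources used here do not give. ATP8 overlaps ATP6, ATP6 overlaps COX3, and ND6 lies on the strand opposite to ND5. ND4L, which overlaps ND4, was at 119 ± 20.0 TPM against 20312 ± 1023 TPM for ND4. The low value of ND4L is given here as the table has it.

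All 31 genes of the contractile list were above 1 CPM, and 29 exceeded 100 CPM. The list took 9.21, 9.43, 9.41 and 9.92% of counts in FA replicates 2, 3, 4 and 6, and its median member stood at 762 TPM beside 16.3 TPM for the 12549 genes at 1 CPM or more that have a length. Thick filament genes took 4.71 ± 0.083% of counts, thin filament genes 2.94 ± 0.34%, and the Z-disc, M-band and giant proteins 1.84 ± 0.17%. Per length the order of thick and thin filament was reversed. Thin filament genes took 4.72% of TPM, thick filament genes 3.43%, and the Z-disc, M-band and giant proteins 1.02%. Among the last group, Actn2, the alpha-actinin that crosslinks actin at the Z-disc, reached 2002 ± 61.4 TPM, Csrp3, a muscle LIM protein, 1679 ± 197 TPM, Ankrd1 1108 ± 137 TPM and Des, the muscle intermediate filament desmin, 717 ± 62.6 TPM. Mybpc3, the cardiac myosin-binding protein C, was at 2206 ± 159 TPM.

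Fetal and adult isoforms of the sarcomere were present together. Of the myosin heavy chain transcripts per length, Myh6, the adult mouse isoform, made up 70.9, 69.8, 67.7 and 72.8% in FA replicates 2, 3, 4 and 6. Myh7, the fetal ventricular isoform, supplied 28.6, 29.7, 31.9 and 26.9%, and Myh7b 0.429 ± 0.071%. Alpha thus exceeded beta in every heart, by 2.13 to 2.71 times. The 2 genes lie in tandem on mouse chromosome 14 (Myh6 at chr14:54941921-54968017 and Myh7 at chr14:54970684-54994626, GRCm38.p6, minus strand) and are similar in sequence, so reads that match both are a source of uncertainty. The antisense transcript Mhrt, which overlaps Myh7, had 9.21 CPM.

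Troponin I, the inhibitory subunit, was much closer to parity. Counts of Tnni3, the adult cardiac form, were 1360, 1978, 1446 and 1674 CPM, and those of Tnni1, the slow skeletal form that the fetal heart uses, were 1382, 1854, 1443 and 1730 CPM. The totals of 154058 and 153432 counts were nearly equal. Divided by exon length, Tnni3 led with 58.3 ± 1.0% of the family, but divided by coding length Tnni1 led with 52.9 ± 1.1%. Which of the 2 forms was more abundant therefore depends on the transcript length assumed. The fast skeletal form Tnni2 made up 0.102% per exon length.

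The remaining sarcomeric families were dominated by 1 member. Tnnt2 supplied 99.4% of troponin T and Tnnc1 99.96% of troponin C. Actc1 made up 93.6 ± 0.53% of the actins examined, Acta2, the smooth muscle form, 6.02 ± 0.49%, and Acta1, the skeletal form, 0.381 ± 0.056%. Tpm1 supplied 84.4 ± 2.2% of tropomyosin. Myl2 was 97.8 ± 0.83% of Myl2 and Myl7 together, and Myl3 96.2 ± 0.72% of Myl3 and Myl4 together, the second name in each pair being the atrial or fetal light chain. Embryonic and perinatal skeletal myosins were nearly absent, with Myh3 at 0.651 CPM and Myh8 at 1.92 CPM.

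**Figure D2:**
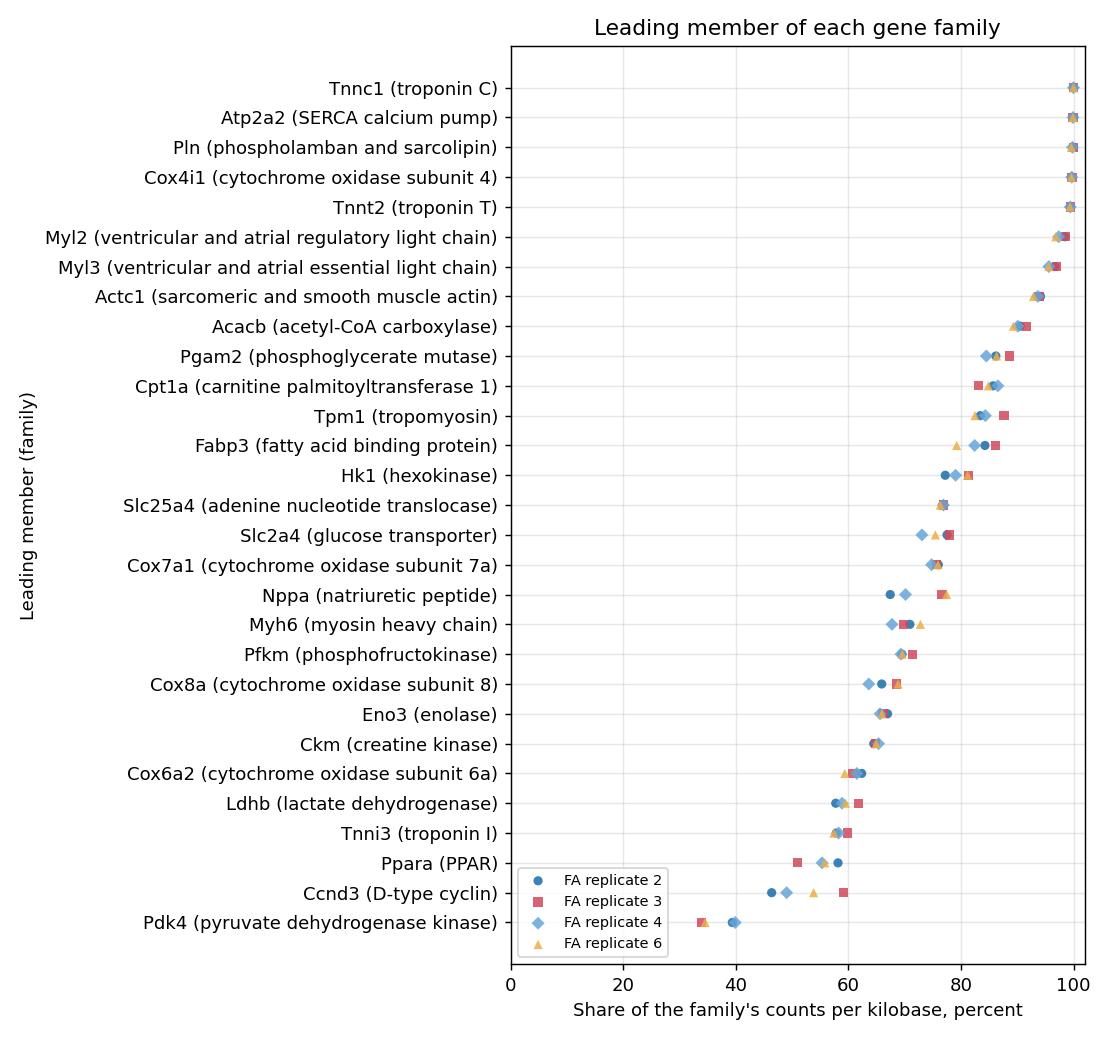
Share of the leading member in each of 29 gene families, as percent of the family's counts per kilobase, 1 point per FA library. Shares near 100 mark families that 1 member supplied almost alone, such as Tnnc1 and Atp2a2, and Pdk4, at 36.9%, is the lowest leader.

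Promoters of contractile genes are shown because a short motif recurred in them. The CArG box, the 10-base A/T-rich element bound by serum response factor, was searched in the 250 bases upstream of each RefSeq start site (GRCm38.p6), where its pattern reads the same on both strands. It occurred in 8 of 35 upstream windows of the contractile list (22.9%), which belong to 7 of its 25 genes with a promoter entry, and in 1.40% of the 20438 windows of all protein-coding genes. Stretches of 60 bases around each box follow, 5′ to 3′ on the strand of the gene, with the box in capitals. For Ldb3, which has a box in overlapping windows, 1 stretch is given.
Acta1, chr8:123894814-123894873, minus strand: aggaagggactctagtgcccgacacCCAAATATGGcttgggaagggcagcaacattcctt
Actc1, chr2:114052888-114052947, minus strand: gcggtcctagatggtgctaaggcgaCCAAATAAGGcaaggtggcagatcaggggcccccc
Ldb3, chr14:34588682-34588741, minus strand: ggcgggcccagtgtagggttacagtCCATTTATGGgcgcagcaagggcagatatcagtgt
Myl3, chr9:110763568-110763627, plus strand: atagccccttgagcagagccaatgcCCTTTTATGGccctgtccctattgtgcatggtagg
Myl7, chr11:5898809-5898868, minus strand: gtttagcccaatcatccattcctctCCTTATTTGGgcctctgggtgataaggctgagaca
Myom1, chr17:71019433-71019492, plus strand: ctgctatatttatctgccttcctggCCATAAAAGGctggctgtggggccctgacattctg
Nebl, chr2:17462984-17463043, minus strand: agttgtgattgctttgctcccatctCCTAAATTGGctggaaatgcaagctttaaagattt

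The genes with a box did not share a level. Actc1 was at 19162 TPM and Myl3 at 6967 TPM, while Nebl stood at 41.5 TPM, ranging from 24.9 to 55.8 TPM, and Acta1 at 78.9 ± 20.0 TPM. The box of Actc1 began 47 bases before the start site and that of Acta1 73 bases before it. Srf, which encodes serum response factor, was at 130 CPM, and its cofactor gene Myocd at 128 CPM. A match is a description of letters and was not tested for binding.

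Other short motifs were looked up in the same windows. CATTCC, the core read by TEAD factors, was found on either strand in 28.6% of contractile windows and in 11.6% of all windows. AGATAA, read by GATA factors, was in 20.0% of contractile and 8.73% of all windows, and TATAAA, searched on the gene's strand, in 2.86% and 7.54%. GGGCGG, a GC box searched on both strands, was in 17.1% of contractile and 43.9% of all windows. Genes of the nuclear respiratory chain, also abundant, had GGGCGG in 30.9% of 68 windows.

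Over all protein-coding genes, promoter composition differed between classes of level. Windows of genes with 0 counts held GGGCGG in 7.19% and TATAAA in 21.5%. Those of genes at 10 to 100 CPM held them in 60.5% and 3.32%, those at 100 to 1000 CPM in 62.4% and 4.49%, and those at 1000 CPM or more in 41.0% and 3.85%. The median ratio of observed to expected CpG rose along the same classes from 0.136 at 0 counts to 0.317 under 1 CPM, 0.601 at 1 to 10 CPM, 0.746 at 10 to 100 CPM and 0.775 at 100 to 1000 CPM. It was lower again, 0.678, for the 55 genes at 1000 CPM or more, and 0.234 for the contractile list.

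Calcium handling genes took 1.98, 1.70, 1.87 and 1.51% of counts in FA replicates 2, 3, 4 and 6. Per length they took 0.848% of TPM, below the 1.49% of the fatty acid list described further on. All 16 calcium handling genes exceeded 1 CPM and 13 exceeded 100 CPM. Atp2a2, which encodes the SERCA pump that refills the sarcoplasmic reticulum, had the highest mean at 2976 ± 600 TPM and supplied 99.9% of the 3 SERCA transcripts. Pln, phospholamban, which restrains that pump, was at 2786 ± 146 TPM, and exceeded Atp2a2 in FA replicate 6 (2608 and 2223 TPM). Casq2, the calcium buffer of the store, was at 1042 ± 67.5 TPM, Slc8a1, the sodium-calcium exchanger, at 279 ± 70.6 TPM and Ryr2, the release channel, at 250 ± 99.1 TPM. Ryr2, with 18230 bases of exon, was among the genes that split the libraries, with 2709 and 2356 CPM in FA replicates 2 and 4 and 1540 and 1289 CPM in FA replicates 3 and 6. Fkbp1b was low, at 4.06 ± 1.0 TPM.

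Several genes known for the atrium varied between the hearts. Nppa, which encodes atrial natriuretic peptide and is also made by the fetal ventricle, was at 348, 823, 648 and 928 CPM in FA replicates 2, 3, 4 and 6. Myl7, the atrial regulatory light chain, was at 43.7, 61.0, 77.3 and 120 CPM. Sln, sarcolipin, the atrial counterpart of phospholamban, was at 0.886, 1.31, 3.52 and 6.94 CPM.

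FA replicate 2 was lowest and FA replicate 6 highest for each of these 3 genes and for Myl4 (104, 140, 153 and 190 CPM), a spread of 1.83 times for Myl4 and 7.84 times for Sln. The ventricular light chain Myl2 spanned 1.42 times and Pln 1.11 times, although the long transcripts of Ryr2 and Ttn each spanned 2.10 times. Not every atrial gene moved with them, since Bmp10 was at 3.78, 4.38, 6.82 and 3.78 CPM and Nr2f2, an atrial identity factor, at 10.5 ± 0.50 CPM. The hearts were trimmed of atrial tissue, and the part that remaining atrial cells had in these values was not tested. Nppb, brain natriuretic peptide, was at 152, 227, 249 and 244 CPM, and Nppa exceeded it in every library, by 2.07 to 3.43 times per length.

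Genes known from the pacemaker and sinus node ranged widely. Hcn4, a pacemaker channel, was at 1.35 ± 0.68 TPM, Shox2 at 0.154 TPM and Isl1 at 0.140 TPM, whereas Tbx18 reached 24.3 ± 3.3 TPM, Cacna1g, a T-type calcium channel, 20.3 ± 5.1 TPM and Tbx3 11.4 ± 2.0 TPM. Ventricular factors were above the atrial one: Hey2 was at 67.6 ± 7.9 TPM and Irx4 at 55.8 ± 5.4 TPM, beside 4.90 ± 0.56 TPM for Nr2f2.

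The cardiac transcription factors were all present, with each of the 15 above 1 CPM and 9 above 100 CPM. Gata6 and Gata4, zinc finger factors of the heart, led per length with 178 ± 24.8 and 135 ± 15.6 TPM. Nkx2-5, the homeobox factor of the cardiac lineage, followed at 116 ± 19.6 TPM, Srf at 113 ± 23.3 TPM and Tbx20 at 102 ± 21.4 TPM. Hand2 reached 47.1 ± 7.3 TPM, while Hand1, its left ventricular relative, was down at 2.92 ± 0.71 TPM.

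Among fuel pathways, the genes of fatty acid uptake and oxidation took a larger share of counts than those of glycolysis. The fatty acid list of 26 genes held 1.23, 1.34, 1.26 and 1.29% in FA replicates 2, 3, 4 and 6, and the glycolysis list of 20 genes 0.814, 0.965, 0.830 and 0.985%. The ranges did not overlap, but the lists differ in size and in transcript length, and the medians per length were close, at 474 and 433 TPM. The lead also rested on uptake and activation genes, among them Fabp3 and Cd36, which held 0.491% of counts. Matrix oxidation held 0.713% and the carnitine shuttle 0.0772%, beside 0.898% for the glycolysis list. The tricarboxylic acid cycle list of 18 genes took 1.28 ± 0.088% with a median of 495 TPM. Every member of the 3 lists exceeded 1 CPM.

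**Figure D3:**
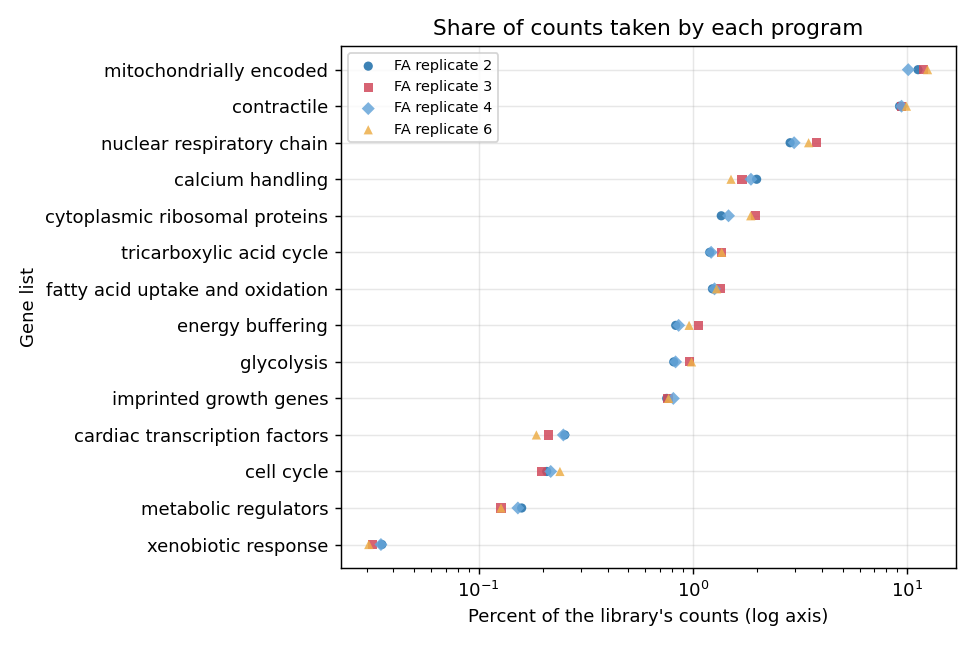
Percent of each library's counts (log axis) taken by 14 gene lists, 1 point per FA library. The mitochondrially encoded genes (10.1 to 12.4%) and the contractile list (9.21 to 9.92%) lie far to the right of the metabolic lists, and the cell cycle list is near 0.215%.

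Fatty acids enter through lipoprotein lipase and CD36 and travel bound to FABP3. Fabp3 was the most abundant gene of the list, at 4014, 4429, 4091 and 4117 TPM, and made up 83.0 ± 2.9% of the 3 binding proteins examined. Lpl and Cd36 had like means of 718 ± 82.0 and 718 ± 88.6 TPM, with Lpl higher in FA replicates 2 and 3 and Cd36 in FA replicates 4 and 6. Acsl1, which activates fatty acids to acyl-CoA, was at 482 ± 48.6 TPM.

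Within the matrix, all 15 oxidation genes exceeded 100 CPM. Acadl, the long-chain acyl-CoA dehydrogenase, led at 1236 ± 99.6 TPM, with Hadhb at 890 ± 43.2 TPM, Acadm, the medium-chain enzyme, at 696 ± 33.5 TPM, Acadvl at 631 ± 24.9 TPM and Hadha at 595 ± 35.0 TPM. Acadm was at 626, 643, 607 and 638 CPM in FA replicates 2, 3, 4 and 6, while Etfb, a subunit of the electron transfer flavoprotein, was at 197, 276, 210.0 and 268 CPM, so the spread between hearts differed from gene to gene.

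Entry into the mitochondrion runs through the carnitine shuttle. Carnitine palmitoyltransferase 1 was supplied mainly by Cpt1a, the form typical of liver and of the fetal heart, at a mean of 85.8 ± 14.8 TPM. Cpt1b, the muscle form, was listed at only 13.2, 11.2, 13.4 and 11.3 TPM, so that Cpt1a made up 85.7, 83.2, 86.5 and 84.8% of the family in FA replicates 2, 3, 4 and 6. This value needs a caution: Cpt1b (chr15:89416405-89425862, GRCm38.p6) is overlapped by the readthrough gene Gm44502, which received 1 count in all, and how fragments lying in both genes were counted is not given in the sources used here. Cpt2, the enzyme of the inner membrane, was at 89.9 ± 3.9 TPM and the carrier Slc25a20 at 171 ± 8.2 TPM. Of the genes that set malonyl-CoA, the inhibitor of this gate, Acacb made up 90.4 ± 0.97% of acetyl-CoA carboxylase, and Mlycd, which removes malonyl-CoA, was at 62.9 ± 6.1 TPM.

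Of the glucose uptake genes, Slc2a4 was at 57.7 TPM and Slc2a1 at 18.2 TPM. Slc2a4, the insulin-responsive transporter, was at 75.1, 74.7, 63.0 and 73.4 CPM, and Slc2a1, the constitutive fetal transporter, at 25.3, 24.6, 27.0 and 27.8 CPM. Per length Slc2a4 exceeded Slc2a1 by 2.71 to 3.52 times. Hk1 made up 79.7 ± 1.9% of hexokinase and Hk2, the muscle form, 20.3 ± 2.0%.

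Further along, muscle forms led in 3 families. Pfkm supplied 69.9 ± 0.97% of phosphofructokinase, with Pfkp at 19.1% and Pfkl at 11.0%. Pgam2 made up 86.4 ± 1.7% of phosphoglycerate mutase and Eno3 66.2 ± 0.57% of enolase. Aldoa, aldolase A, was the most abundant glycolytic transcript at 1817 ± 162 TPM, and Pkm, pyruvate kinase, was at 950 ± 27.0 TPM. Gapdh was listed at 395 ± 35.9 TPM, below its neighbours in the pathway Tpi1 (818 ± 39.8 TPM) and Pgk1 (842 ± 18.3 TPM). Gapdh has many near-identical pseudogene copies, and the handling of reads that match several places is not given, so its level is uncertain.

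The 2 lactate dehydrogenase genes had almost the same number of counts, 67949 for Ldhb, the heart form, and 67854 for Ldha, the form of glycolytic muscle. Per exon length Ldhb led with 59.5 ± 1.7%, and per coding length with 52.2 ± 1.7%. The pyruvate dehydrogenase kinases, which restrain the oxidation of pyruvate within the mitochondrion, had an order that depended on the length used. Per exon length Pdk4 made up 36.9 ± 3.1%, Pdk2 33.0 ± 3.5% and Pdk1 18.4 ± 1.8%, and Pdk4 was ahead of Pdk2 in FA replicates 2 and 4 only. Per coding length Pdk4 led with 40.3 ± 2.3%, ahead of Pdk1 at 28.4 ± 2.0% and Pdk2 at 23.6 ± 3.2%.

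Regulators of this metabolism were modest in level. Hif1a, the hypoxia-responsive factor, had 132 ± 25.8 TPM and was the highest of the 15, followed by Prkaa2, a catalytic subunit of AMP-activated kinase, at 106 ± 26.8 TPM. Esrra, an orphan receptor that drives mitochondrial genes, was at 92.7 ± 11.5 TPM and Ppargc1a, the coactivator PGC-1alpha, at 226, 178, 201 and 170 CPM. Of the PPAR receptors, Ppara made up 55.0 ± 3.0%, Ppard 30.3 ± 1.2% and Pparg 14.7 ± 2.5%.

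In the citric acid cycle, Idh2 led at 2409 ± 109 TPM, ahead of Mdh2 at 1524 ± 147 TPM and Sdha at 1082 ± 55.1 TPM. Sdhd, an anchor subunit of the same complex as Sdha, was listed at only 4.47, 3.60, 5.24 and 2.84 TPM, beside means of 809 TPM for Sdhb and 211 TPM for Sdhc.

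The nuclear genes of the respiratory chain took 2.84, 3.78, 2.97 and 3.47% of counts in FA replicates 2, 3, 4 and 6 and 6.39% of all TPM. Of the 75 genes, 74 were above 1 CPM, and the median was 518 TPM. ATP synthase genes were highest in total at 1.57 ± 0.18% of counts, complex I genes held 0.758 ± 0.11%, complex IV 0.494 ± 0.092% and complex III with cytochrome c 0.442 ± 0.057%. Per length, ATP synthase genes again led, with 2.453% of TPM, and complex III with cytochrome c held 0.924%. Complex I and complex IV were nearly equal on that scale, at 1.501 and 1.508% of TPM. The lead of complex I over complex IV in counts was thus absent per length. The gene below 1 CPM was Uqcr11, a small subunit of complex III, with 2 counts over all 4 libraries. Its partners Uqcrh and Uqcr10 reached 2125 ± 263 and 1242 ± 182 TPM. For Uqcr11 and Sdhd the counting of reads with several matching places was not given, and their low values were not tested further.

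Cytochrome c oxidase carries tissue-specific subunits, and here muscle forms and general forms were mixed. Cox6a2, the muscle form, made up 61.0 ± 1.3% of its pair and Cox7a1, also a muscle form, 75.6 ± 0.56%, whereas the general form Cox8a led with 66.7 ± 2.5%. Cox4i1 supplied 99.6% of subunit 4. The heart form of the ATP-ADP carrier, Slc25a4, was steady at 76.7 ± 0.27% of the 3 carriers, and Ckm, muscle creatine kinase, at 64.9 ± 0.36% of creatine kinases. Mb, myoglobin, reached 3296 ± 211 TPM.

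Cells in these preparations still carried transcripts of the division machinery. All 36 cell cycle genes exceeded 1 CPM, and together they took 0.208, 0.196, 0.217 and 0.239% of counts in FA replicates 2, 3, 4 and 6. Mki67, the proliferation marker, was at 284, 181, 270 and 297 CPM, Top2a at 154, 123, 149 and 183 CPM and Cdk1, the mitotic kinase, at 49.6, 55.0, 50.5 and 66.6 CPM. The bulk libraries do not say which cell type carried them. Cdkn1a, an inhibitor of the cycle, was at 96.9 CPM, and Meis1, a factor known to restrain cardiomyocyte division, at 43.1 CPM.

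The lead among D-type cyclins depended on the scale. Ccnd2 had 18438 counts and Ccnd3 9431. Over exon lengths of 6711 and 2447 bases, Ccnd3 led with 52.1 ± 5.6%, while over coding lengths, which are nearly equal, Ccnd2 led with 58.2 ± 4.6%.

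Imprinted growth genes of the fetus were still abundant. Igf2, insulin-like growth factor 2, was at 2026, 2218, 2115 and 2026 CPM, and H19, the noncoding RNA of the same imprinted domain on chromosome 7, at 1629, 2161, 1798 and 2123 CPM. Igf2r, the receptor that clears Igf2, had 1370 ± 216 CPM, Grb10 879 CPM, Mest 635 CPM and Plagl1 494 CPM. All 12 genes of the list exceeded 1 CPM and 8 exceeded 100 CPM.

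Markers of cardiomyocytes outweighed those of every other cell type examined. The 8 cardiomyocyte markers summed to 53500 to 59400 CPM. The 9 fibroblast markers summed to 3079, 1999, 2888 and 3439 CPM in FA replicates 2, 3, 4 and 6, with Postn at 490 TPM and Col3a1 at 405 TPM, so fibroblast transcripts remained after preplating. The 8 endothelial markers summed to 957 to 1246 CPM, with Cdh5 at 144 TPM. The 8 smooth muscle and pericyte markers summed to 1132 to 1769 CPM, most of it from Acta2, which immature cardiomyocytes also make, at a mean of 1122 CPM. Per length Acta2 was at 1241 TPM and Myh11, the more specific smooth muscle myosin, at 6.01 TPM.

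**Figure D4:**
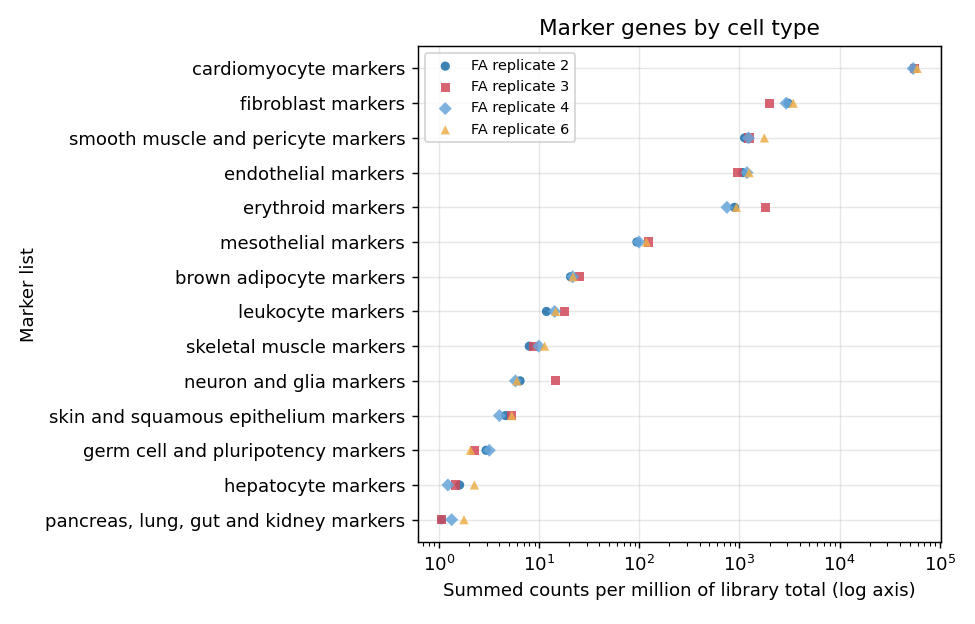
Summed CPM (log axis) of the marker lists for cardiomyocytes and other cell types, 1 point per FA library. Cardiomyocyte markers lie between 53500 and 59400, fibroblast, endothelial, smooth muscle and erythroid markers between 741 and 3439, and hepatocyte markers at or below 2.25.

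Blood cells were represented unequally. Of 8 leukocyte markers 3 exceeded 1 CPM, the myeloid genes Cd68 at 7.95 CPM, Csf1r at 3.12 CPM and Lyz2 at 2.31 CPM, while Ptprc, the common leukocyte antigen, was at 0.571 CPM. Erythroid markers summed to 898, 1838, 741 and 931 CPM, with FA replicate 3 at 2.48 times the lowest library. Adult globin carried that difference, as Hba-a2 was at 397, 838, 322 and 417 CPM, while embryonic Hbb-bh1 had 0 counts.

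Many marker genes of other organs were absent or close to it. No hepatocyte marker reached 1 CPM, with Alb at 1 count in all and Fgb at 0 counts. Of 17 skeletal muscle markers, 3 exceeded 1 CPM, and the myogenic factors Myod1, Myf5 and Pax7 had 0 counts. Ins1, Prss1, Scgb1a1 and Umod, of pancreas, lung and kidney, had 0 counts, as did Krt5 of the skin and Olig2 of the brain. In the last 2 lists some markers were above 1 CPM, 1 of 7 for skin (Krt10 at 2.69 CPM) and 2 of 8 for neurons and glia. Of 6 brown adipocyte markers 2 exceeded 1 CPM, Cidea at 32.3 ± 2.8 TPM and Dio2 at 2.22 TPM, beside 0.830 TPM for Ucp1 and 0 counts for Plin1.

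In all, 6491 genes (23.9%) had 0 counts in the 4 libraries, and 2203 more had 1 to 3 counts. A count of 0 in a library allows up to 3 counts, or 0.0777 to 0.167 CPM depending on its depth, and 0.0306 CPM over the 98108341 counts of all 4 libraries, for counting error only. By class, 3673 of 20979 protein-coding genes were at 0, 688 of 2077 lncRNAs, 356 of 835 pseudogenes and 408 of 643 miRNA genes, whose short products poly-A selection does not keep.

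Gene families of the senses accounted for many of the silent genes. Of 1108 olfactory receptors, 1026 had 0 counts, and of 353 vomeronasal receptors, 327. All 22 major urinary protein genes, 51 of 55 keratin-associated proteins and 35 of 42 beta-defensins were at 0. Keratins were mixed, with 26 of 50 at 0 and 7 at 1 CPM or more. Housekeeping families were the reverse of the silent ones, with 0 of 75 mitochondrial ribosomal proteins and 1 of 47 members of the mitochondrial carrier family Slc25 at 0. The silent families had exceptions in all 4 libraries: Olfr613 was at 28.6, 28.9, 26.2 and 24.4 CPM, and Vmn1r58 at 11.8, 11.1, 13.3 and 7.76 CPM. In total 6 olfactory receptors exceeded 1 CPM, among them Olfr608 and Olfr558 at 3.02 and 2.79 CPM.

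A list of 10 genes covered the response to combustion products, with its receptor and the receptor's partner. In these FA hearts 9 of the 10 exceeded 1 CPM and 1 exceeded 100 CPM. Over all genes, 48.7% averaged at least 1 CPM and 7.01% at least 100 CPM. Cyp1a1, the classic target of the aryl hydrocarbon receptor, was at 3.39, 7.21, 6.33 and 3.83 CPM, and Cyp1a2, its liver relative, had 0 counts. The receptor gene Ahr was at 6.62 ± 1.4 CPM, its repressor Ahrr at 6.28 ± 1.1 CPM and its partner Arnt at 93.5 ± 7.1 CPM. Tiparp, another receptor target, was at 134 ± 15.5 CPM. Hmox1 and Nqo1, oxidative stress enzymes, were at 33.3 ± 5.5 and 9.51 ± 0.80 CPM.

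The hearts were close to each other gene by gene. Over the 9049 genes at 10 CPM or more, the median SD of log2 CPM was 0.16, with 5% of genes under 0.05 and 5% over 0.35. It exceeded 0.5 in 105 genes and exceeded 1 in 0 genes. The common biological coefficient of variation by edgeR was 13.5%. The 5 genes with the smallest SD were Stat6, Ssrp1, Cry2, Ctdspl and Thoc1. Stat6, a cytokine signalling factor, was at 50.6, 50.7, 50.5 and 50.1 CPM, and Ssrp1, a histone chaperone subunit, at 88.0, 88.0, 87.2 and 88.3 CPM.

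The 3 genes with the largest SD followed the pairing of the libraries. Hipk2, a nuclear kinase, was at 42.6, 14.6, 48.0 and 13.4 CPM in FA replicates 2, 3, 4 and 6. Erbb4, the neuregulin receptor of cardiomyocytes, was at 18.2, 4.97, 18.7 and 6.37 CPM, and Bmpr2, a BMP receptor, at 79.7, 29.4, 85.7 and 26.2 CPM. In each of the 3 genes, FA replicates 2 and 4 were high and FA replicates 3 and 6 low, with no overlap. Nppa and Hba-a2, whose values are given above, separated the same pairs in the other direction, and Myl7 did not separate them. Of the 100 most variable genes, the library farthest from the median of the 4 was FA replicate 3 in 63 and FA replicate 6 in 31. Where the pairs split, such a library need not stand apart from its partner.

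These genes were long. The 100 most variable genes with known length had a median of 8106 exonic bases beside 3625 for all 8889 genes tested. With the genes cut into 5 groups of about equal size by length, in the shortest group (up to 2033 bases) the median deviation from the gene's mean was -0.17, 0.19, -0.13 and 0.11 on the log2 scale in FA replicates 2, 3, 4 and 6. In the longest group (from 5982 bases) it was 0.18, -0.18, 0.15 and -0.12. GC content moved the same libraries less, with FA replicate 3 going from -0.10 in the group of lowest GC to 0.12 in that of highest GC and FA replicate 6 near -0.01 in both.

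When a fit on length and GC content was taken out of each library, an alternative chosen after seeing the data, the median SD over these 8889 genes went from 0.16 to 0.11. The median difference between FA replicates 2 and 3 went from 0.22 to 0.11, that between FA replicates 3 and 6 from 0.15 to 0.14 and that between FA replicates 2 and 4 from 0.07 to 0.07. That between FA replicates 3 and 4 went from 0.21 to 0.12. With the fit removed, FA replicate 3 was thus nearer to FA replicates 2 and 4 than to FA replicate 6. The part of RNA quality or library preparation in this trend was not tested, and it cannot be told apart from differences between hearts. It bears on each level of a very long or very short transcript above, such as Ttn (6712, 3198, 6671 and 5666 CPM) and the nuclear respiratory chain share.

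**Figure D5:**
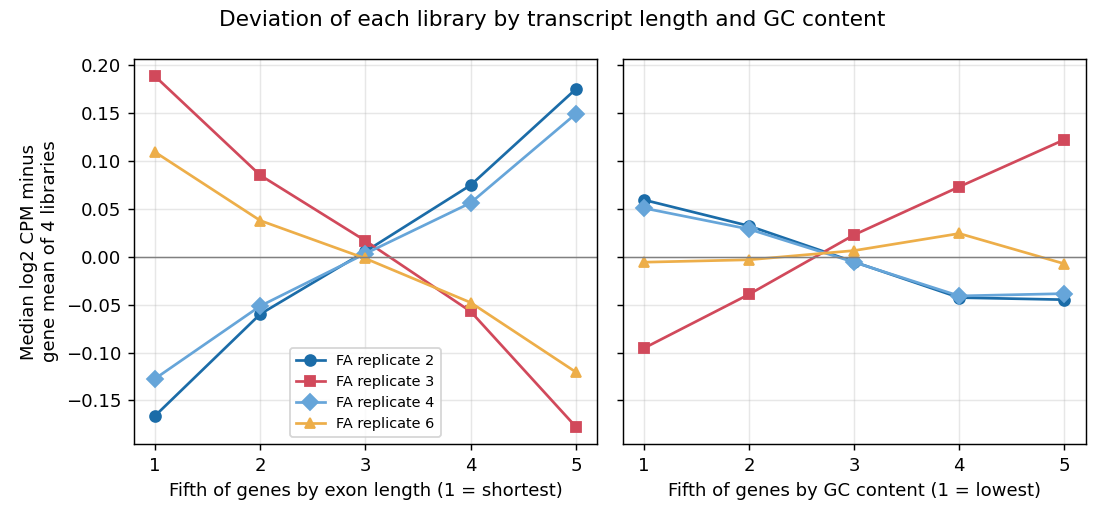
Median log2 CPM of each library minus the gene's mean over the 4 FA libraries, in 5 groups of genes by exon length (left) and by GC content (right), for 8889 genes at 10 CPM or more. FA replicates 3 and 6 fall from the shortest to the longest group, FA replicates 2 and 4 rise, and GC content separates mainly FA replicate 3.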

How the data were processed

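RNA-seq was performed on poly-A selected RNA (TruSeq Stranded mRNA, Illumina HiSeq) from NCMs. The authors aligned reads to mm10 with an Ensembl transcriptome using Tophat, merged lanes and marked, but did not remove, duplicates with Picard, and generated fragment counts per Entrez gene with featureCounts, and they deposited 1 table of these raw counts. The strand setting, annotation and treatment of multiply matching reads in counting are not given in the sources used here. Unremoved duplicates mean that limits on 0 counts cover counting error only.

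Symbols were matched by Entrez ID to the GRCm38.p6 RefSeq table (25275 of 27179 IDs). Exon length was the union of exons of GENCODE M21 basic transcripts (21572 genes, 98.6% of counts), and coding length the longest GENCODE coding sequence, in place of the planned RefSeq protein length, since no protein table was at hand. TMM-normalised CPM and dispersion came from edgeR 4.0.16 in R 4.3.3 within the 4 FA libraries. TPM and shares were computed in Python 3.11.15. Log2 values carry an offset of 0.5 CPM. No comparison with the diesel group was made, since only the FA baseline is described, and no p-value is given within the FA group, where an exact sign-flip test over 4 libraries cannot go below p = 0.125.

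Genes named were drawn from the 20 of highest TPM, the 10 with the most counts, the members of the isoform families, the highest, lowest and silent members of each gene list, all members of lists of 15 or fewer where described, and the 10 most and 5 least variable genes, and not every gene the rule admits is printed. Others, chosen after their values were seen, are the Y-linked genes, Xist, Mhrt, Gm44502, olfactory and vomeronasal receptors, and further members of the larger lists. The lists and members were chosen with earlier results of these data known. Alternatives were other normalisations, thresholds, thinning to equal depth, other lengths and denominators, and leaving out each library. Scripts were tested on simulated counts. Values of some single genes are not reported here.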

Additional observations from a re-analysis of the deposited data

Results flagged for a closer look

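Of 120 library-level values, list sums, isoform shares and gene levels screened over the 4 FA libraries, 7 had 1 library far from the other 3 by Dixon's gap test, where chance alone flags about 1 in 20 (6 of 120). FA replicate 2 was sequenced deepest, with 38619126 counts.

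FA replicate 3 was set apart 3 times: the neuron and glia markers summed to 14.6 CPM, Hbb-bs, an adult globin gene, reached 300.1 CPM, and Pfkm made up 71.4% of phosphofructokinase. FA replicate 6 had the most Acta1, at 72.1 CPM, and the lowest Atp2a2 share of the SERCA transcripts, at 99.85%. FA replicate 4 had the least Slc2a4, at 63.0 CPM.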

How the results depend on the processing

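The gene counts at 1 CPM or more (10604 to 14362 over the other thresholds, factors, thinning and filter) and at 0 counts (5625 to 8694) stayed within 1.5 times of 13233 and 6491. Leaving out each library was run for the gene counts, 10 list shares, 29 isoform shares and the variation measures. It was not run for single-gene levels, marker sums or promoters. Myh6 then made up 69.5 to 71.2% of myosin heavy chain, and the contractile list took 9.35 to 9.59% of counts. The common variation was 12.3 to 14.7%, and the median SD of log2 CPM 0.13 to 0.17. Summing counts over libraries instead of averaging shares moved none of the 29 shares beyond 1 SD. For shares, neither check could do otherwise. Leaving out 1 of 4 libraries cannot move a mean share by 1 SD, and summing only weights the same 4 libraries differently. No paired analysis was possible because only 1 group was described.

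With totals that leave out the mitochondrially encoded genes, the percent of counts became 10.8 for the contractile list, 3.71 for the nuclear respiratory chain, 2.00 for calcium handling, 1.46 for the tricarboxylic acid cycle, 1.45 for fatty acid use, 1.05 for energy buffering, 1.02 for glycolysis, 0.879 for imprinted genes and 0.244 for the cell cycle. As shares of TPM they were 27.9 for mitochondrially encoded genes, 9.17, 6.39 and 0.848 for the contractile, nuclear respiratory and calcium lists, 1.49, 1.17 and 1.04 for fatty acid use, energy buffering and glycolysis, and 0.442 and 0.147 for imprinted and cell cycle genes.

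Of the 29 families, the leading member changed in D-type cyclins, both without length and per coding length, and in troponin I, per coding length. In pyruvate dehydrogenase kinase, Pdk4 led on each scale, but Pdk1 was above Pdk2 without length (29.6 and 23.0%) and per coding length (28.4 and 23.6%). Without division by length the leading shares, in percent, were Tnni3 50.1, Tnnt2 99.5, Actc1 91.5, Tpm1 91.3, Myl2 98.9, Atp2a2 99.9, Cpt1a 89.5, Slc2a4 73.1, Hk1 77.2, Pfkm 63.0, Pgam2 75.03, Eno3 54.6, Ldhb 50.2, Cox6a2 65.1, Cox7a1 71.5, Cox8a 75.4, Slc25a4 83.6, Ckm 77.4, Ppara 59.2 and Ccnd3 31.1. Per coding length they were Tnni3 47.1, Actc1 91.5, Tpm1 89.5, Myl2 98.9, Atp2a2 99.9, Cpt1a 89.5, Acacb 89.3, Slc2a4 72.5, Hk1 76.7, Pfkm 63.1, Pgam2 75.1, Eno3 54.6, Ldhb 52.2, Pdk4 40.3, Cox6a2 68.3, Cox7a1 70.1, Cox8a 75.6, Slc25a4 83.6, Ckm 78.5, Ppara 58.5 and Ccnd3 30.9. With 4 libraries, and litters not given, the SDs may include shared sources of variation.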
